A study of Mus musculus with 12 samples.

Results

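The 7 Th17 lineage genes described here are *Rora*, *Il17a*, *Il17f*, *Il22*, *Il23r*, *Cd163l1* and *Serpinb1a*. They were chosen by symbol, with earlier results of these data known, from the 40840 genes listed in each count file. They comprise a transcription factor of the lineage, its cytokines, the specific chain of the IL-23 receptor, and a pair of genes associated with Th17 cells. Donor OTII cells, which are CD4+ T cells whose transgenic TCR recognizes OVA, were transferred into WT or *Il6*-/- recipients. All recipients were sensitized i.n. with 100 µg HDM extract plus 5 µg LPS-free OVA. LPS had been added to the extract, which was itself low in endotoxin, to give a high endotoxin content (about 250 EU/mg). OTII cells were sorted from the mediastinal LN (mLN) on Day 3 or Day 5. Days are numbered as in the labels, and the submitters state that their article numbers them from 0 instead of 1. There were 3 replicates of each of the 4 groups: WT recipients on Day 3, *Il6*-/- recipients on Day 3, WT recipients on Day 5 and *Il6*-/- recipients on Day 5. The genotype is that of the recipients, all groups received OTII donor cells, and no group was left unsensitized. Whether a replicate came from 1 mouse or a pool is not stated in the sources used here, and neither is the age of the mice, so the tests measure the spread between these libraries.

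IL-6 acts with TGF-β on newly activated CD4+ T cells, through STAT3, to start the Th17 program. The nuclear receptor RORα, encoded by *Rora*, takes part in the transcription of the lineage cytokines IL-17A, IL-17F and IL-22. The receptor for IL-23, which Th17 cells acquire as they differentiate, sustains the program. In the lung, Th17 cytokines act on epithelium and recruit neutrophils.

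To show what the counts of the cytokine genes can and cannot tell apart, a stretch of coding sequence of *Il22* is given beside that of *Iltifb*, a nearby gene copy that GENCODE names *Il22b*. The coding sequences of both genes had 537 bases and differed at 9 of them (98.3% identical), and the longest run without a difference had 215 bases. Of the 865 windows of 50 bases in the exons of *Il22*, the length of the reads, 490 (56.6%) occurred at 1 place of the genome, and 375 were shared with *Iltifb*. The stretch covers coding positions 158 to 217, in which 3 bases, in capitals, differ. On GRCm39 it lies between chr10:118041053 and chr10:118041505 on the plus strand in *Il22*, and between chr10:118130285 and chr10:118130737 on the minus strand in *Iltifb*, across an exon border in both.
*Il22*: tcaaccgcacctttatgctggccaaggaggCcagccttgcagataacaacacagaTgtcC
*Iltifb*: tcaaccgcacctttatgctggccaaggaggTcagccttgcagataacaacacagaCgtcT

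The promoter windows of the cytokine and receptor genes are shown because *Il17f*, *Il22*, *Iltifb* and *Il23r* were lower together in *Il6*-/- recipients on Day 3. *Il17a* is added as the neighbor of *Il17f*. The windows run from 250 bases before to 50 bases after the transcription start (RefSeq, GRCm38.p6, a different build from that of the counts). Of the 7 genes and *Iltifb*, all but *Serpinb1a* were matched to a window. Capitals mark the 6 letters AGGTCA, the half-site to which RORα binds, on either strand. At the start of the *Il17a* window they mark TGANTCA, a loose form of the AP-1 motif in which N is any base.
*Il17a* (chr1:20730655-20730954, plus strand): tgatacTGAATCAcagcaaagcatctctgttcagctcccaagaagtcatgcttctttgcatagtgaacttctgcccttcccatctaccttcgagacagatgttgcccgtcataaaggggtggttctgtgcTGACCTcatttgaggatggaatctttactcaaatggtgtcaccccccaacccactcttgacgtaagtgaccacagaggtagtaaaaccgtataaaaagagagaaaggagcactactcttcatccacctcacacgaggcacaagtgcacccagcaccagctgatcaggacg
*Il17f* (chr1:20784221-20784520, minus strand): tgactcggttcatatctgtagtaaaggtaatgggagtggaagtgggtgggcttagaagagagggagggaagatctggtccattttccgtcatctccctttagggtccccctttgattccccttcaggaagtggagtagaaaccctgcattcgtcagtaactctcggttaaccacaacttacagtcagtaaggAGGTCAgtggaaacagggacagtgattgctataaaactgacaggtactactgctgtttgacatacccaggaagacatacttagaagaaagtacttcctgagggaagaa
*Il23r* (chr6:67491806-67492105, minus strand): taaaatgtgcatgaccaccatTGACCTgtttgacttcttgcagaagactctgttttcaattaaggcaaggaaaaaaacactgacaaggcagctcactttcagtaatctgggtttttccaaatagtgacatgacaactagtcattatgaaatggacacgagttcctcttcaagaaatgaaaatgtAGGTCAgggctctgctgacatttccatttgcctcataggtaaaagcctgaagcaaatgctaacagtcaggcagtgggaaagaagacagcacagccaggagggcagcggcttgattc
*Iltifb* (chr10:118294989-118295288, minus strand): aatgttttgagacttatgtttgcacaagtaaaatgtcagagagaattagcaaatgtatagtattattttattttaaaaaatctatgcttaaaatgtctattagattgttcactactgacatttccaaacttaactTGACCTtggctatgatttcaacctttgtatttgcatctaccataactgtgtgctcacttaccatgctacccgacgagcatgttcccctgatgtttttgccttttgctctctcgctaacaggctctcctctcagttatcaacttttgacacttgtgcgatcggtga
*Il22* (chr10:118204714-118205013, plus strand): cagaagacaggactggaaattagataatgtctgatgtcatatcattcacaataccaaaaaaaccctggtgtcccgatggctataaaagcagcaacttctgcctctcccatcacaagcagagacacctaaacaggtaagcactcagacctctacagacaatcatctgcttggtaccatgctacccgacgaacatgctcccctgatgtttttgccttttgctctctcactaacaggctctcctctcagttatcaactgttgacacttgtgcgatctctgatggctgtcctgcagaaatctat
The ROR half-site occurred in the windows of *Il17a* (first base 120 bases before the start), *Il17f* (58 bases), *Il23r* (229 and 66 bases) and *Iltifb* (115 bases). It was not in those of *Il22*, *Cd163l1* or *Rora*. Of 32851 mouse promoter windows of this length, 16.3% held AGGTCA, 7.81% held TGANTCA and 8.30% held TTCNNNGAA, the motif of STAT factors, which was in none of the windows of these genes. Matches of different motifs did not overlap. A match describes these letters only.

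The libraries held 16125947 to 26111657 reads on genes (median 19727354). T cell markers summed to 6125 to 12755 CPM (counts scaled to library size) per library. Among them, *Trbc1* varied within the groups of Day 5, from 5.56 to 543 CPM in WT and from 5.16 to 532 CPM in *Il6*-/- recipients. The reason for this was not tested. Markers of red blood cells summed to at most 1.14 CPM, although blood is the labelled tissue. Libraries differed in neutrophil genes such as *S100a8* and *S100a9*, with a summed level of 0.326 to 131 CPM over the 10 markers of the list, and none of the 7 of them tested passed in either genotype comparison. The B cell marker *Pax5* was lower in *Il6*-/- recipients on Day 3 (15 to 22 against 0 to 7 reads), while the 6 B cell markers summed to 5.19 to 8.36 against 6.36 to 8.10 CPM, with *Ebf1* at 0 in both groups and *Ms4a1* in *Il6*-/- recipients. The lung epithelium marker *Sftpc* was higher (0 to 4 against 1 to 176 reads), with sums over its 5 markers of 0.494 to 1.52 against 0.475 to 11.3 CPM and *Sftpa1* at 0 in WT recipients. The part of these cells in the results was not tested. *Il6* had 0 to 5 reads per library, which does not check the labels because the genotype is that of the recipient. CPM refer to TMM-scaled library sizes.

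The comparison of *Il6*-/- with WT recipients asks which of these genes depended on IL-6 of the recipient during priming. On Day 3, *Il23r*, *Il17f*, *Il22*, *Cd163l1* and *Serpinb1a* were lower in *Il6*-/- recipients, whereas *Rora* did not pass and *Il17a* had too few reads for the fit. On Day 5, *Il22*, *Il23r* and *Cd163l1* were lower. To pass, a gene needed a change of 2-fold or more with FDR below 0.05 in edgeR's quasi-likelihood test with Benjamini-Hochberg adjustment over 13570 genes. The 5 genes that passed on Day 3 compare with 2.74% of all genes tested that passed in either direction, 1.81% lower and 0.936% higher. The 3 on Day 5 compare with 1.14%, of which 0.818% were lower and 0.324% higher. *Il17f*, *Il22*, *Il23r* and *Cd163l1* entered the fit through libraries of WT recipients alone, so that their passing the low-count filter already required reads in these libraries. In bulk libraries, fewer cells expressing a gene and less RNA per cell cannot be told apart.

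**Figure D1:**
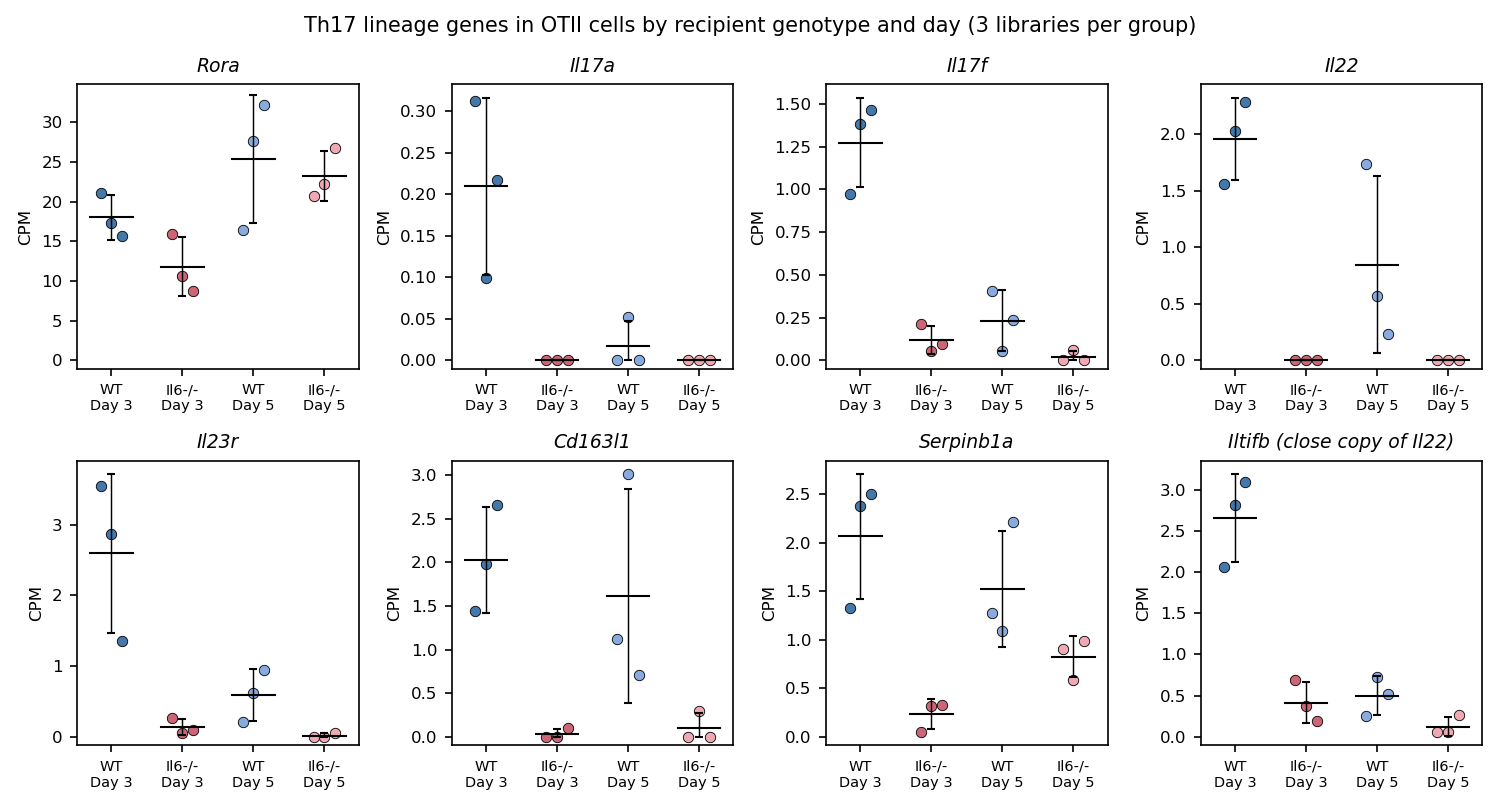
CPM of the 7 Th17 lineage genes and of *Iltifb* in each library (points) by recipient genotype and day, with the mean (line) and SD (bar, cut at 0) of 3 libraries. The 3 libraries of WT recipients on Day 3 lie above those of *Il6*-/- recipients on Day 3 for every gene but *Rora*, whose groups overlap.

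*Rora* encodes RORα (chr9:68561068-69295528 on GRCm39, plus strand, 18 merged exons). It was the member with most reads in every library. On Day 3 its counts were 541, 349 and 288 in WT recipients, and 302, 200 and 185 where *Il6* was lacking. On Day 5 they were 323, 532 and 683 in WT, and 392, 379 and 513 in *Il6*-/- recipients. The mean level on Day 3 was 18.0 ± 2.81 CPM for WT and 11.8 ± 3.73 CPM for *Il6*-/- recipients (SD, n = 3), and on Day 5 it was 25.4 ± 8.07 and 23.2 ± 3.10 CPM. The groups overlapped on both days, and the log2 difference of -0.62 ± 0.24 (SE) on Day 3 did not pass (FDR = 0.106), nor did that of -0.13 ± 0.23 on Day 5 (FDR = 0.816). Under the alternatives that left out no single library, the Day 3 FDR lay between 0.0018 and 0.110 and the change was under 2-fold in each. The 158 exonic bases that overlap genes on the other strand are a small part of its 14471.

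*Il23r* encodes the chain of the IL-23 receptor that binds IL-23 (chr6:67391313-67468888, minus strand, 12 exons). On Day 3 it had 91, 58 and 25 reads in WT recipients and 5, 1 and 2 in *Il6*-/- recipients. The Day 5 libraries had 4, 12 and 20 reads in WT and 0, 0 and 1 in *Il6*-/- recipients. Every library of WT recipients was above every library of *Il6*-/- recipients of the same day. *Il23r* had a log2 difference of -4.19 ± 0.71 on Day 3 (FDR = 0.0013), and this was -4.62 ± 1.05 on Day 5 (FDR = 0.021). From the summed reads alone, the level in WT recipients was 19.9 times that in *Il6*-/- recipients on Day 3 (95% counting interval 9.89 to 46.9) and 33.0 times on Day 5 (5.56 to 1340). Such intervals cover counting error only. Its exons share 582 bases with *Gm4761*.

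*Il17a*, which encodes the defining cytokine of the lineage, was close to the limit of detection (chr1:20801129-20804720, plus strand, 3 exons). It had 8, 2 and 4 reads in WT recipients on Day 3 and none in *Il6*-/- recipients on Day 3. By Day 5, 1 read was left in WT recipients, in replicate 2, and none in *Il6*-/- recipients. With a floor of 3 reads per library for a count of 0, the mean *Il17a* level of WT recipients on Day 3 was 1.37 times the floor. Replicate 2 of WT recipients, with 2 reads, lay under the floor, so this ratio is not a firm lower limit. The exact two-sided permutation test of the CPM gave p = 0.1, the smallest that 20 labelings allow. Without a low-count filter, the edgeR fit gave an FDR of 0.135. On Day 5 both groups were at or under the floor.

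*Il17f*, the neighbor of *Il17a* whose product pairs with IL-17A, had more reads (chr1:20847368-20860841, minus strand, 8 merged exons). On Day 3 it had 25, 28 and 27 reads in WT recipients and 4, 1 and 2 in *Il6*-/- recipients. It fell by 3.35 ± 0.73 on the log2 scale (FDR = 0.0068). The Day 5 counts were 8, 1 and 5 in WT and 0, 1 and 0 in *Il6*-/- recipients. In CPM these groups overlapped, and the Day 5 difference of -3.28 ± 1.12 did not pass (FDR = 0.111).

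*Il22* encodes IL-22, which acts on epithelial cells (chr10:118040847-118045952, plus strand, 5 exons). In WT recipients it had 40, 41 and 42 reads on Day 3 and 34, 11 and 5 on Day 5. No library of *Il6*-/- recipients had a read on *Il22*. In the fit, *Il22* was lower in *Il6*-/- recipients on Day 3 (FDR = 0.0017) and on Day 5 (FDR = 0.018). The mean *Il22* level of WT recipients was 12.8 times the floor of 3 reads per library on Day 3 and 5.17 times on Day 5. Replicate 3 of WT recipients on Day 5, with 5 reads (0.235 CPM), was close to the floor of 0.164 CPM. The ratio of 5.17 is therefore not a firm lower limit. *Iltifb* had 53, 57 and 57 reads in WT recipients on Day 3 and 13, 7 and 4 in *Il6*-/- recipients. On Day 5 *Iltifb* had 5, 14 and 11 reads in WT and 1, 1 and 5 in *Il6*-/- recipients. *Iltifb* fell by 2.67 ± 0.56 on the log2 scale on Day 3 (FDR = 0.0057), and its difference of -1.93 ± 0.71 on Day 5 did not pass (FDR = 0.139).

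Because the copies share many windows, the reads counted on *Il22* and on *Iltifb* were also added, an alternative chosen after seeing the data. How the counting treated reads from the shared windows was not stated. The sum does not recover reads that were counted on neither copy. The sum was 93, 98 and 99 reads in WT recipients and 13, 7 and 4 in *Il6*-/- recipients on Day 3. On Day 5 it was 39, 25 and 16 reads in WT recipients and 1, 1 and 5 in *Il6*-/- recipients. The log2 difference of the sum was -3.46 ± 0.52 on Day 3 (FDR = 5.6e-04) and -3.35 ± 0.64 on Day 5 (FDR = 0.0079). *Il22* held 42.4% of the summed reads of WT recipients on Day 3 and 62.5% on Day 5, and 0% in *Il6*-/- recipients on both days. On Day 5, 34 of the 50 *Il22* reads came from replicate 1 of WT recipients. The exons of *Il22* overlap *Gm40775* on the other strand over 210 bases, and the counting did not use strand.

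**Figure D2:**
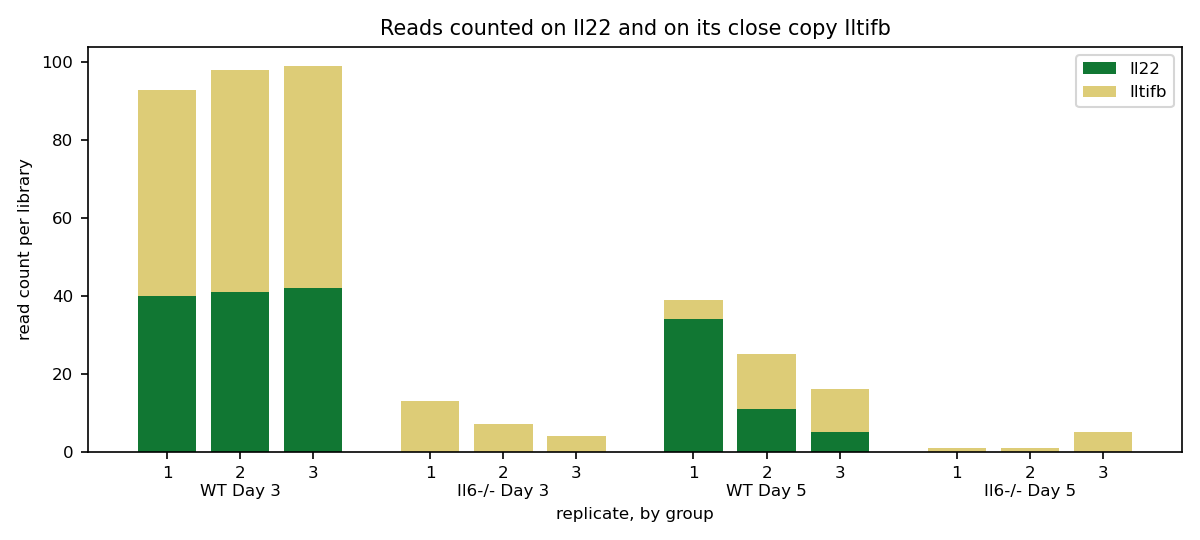
Reads counted on *Il22* (green) and on its close copy *Iltifb* (yellow), stacked, for replicates 1 to 3 of each group. The 6 libraries of *Il6*-/- recipients have no read on *Il22* and 1 to 13 reads on *Iltifb*.

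*Cd163l1*, named *Scart1* in GENCODE, encodes a scavenger receptor of T cells (chr7:139798180-139811058, plus strand, 12 exons). It had 37, 40 and 49 reads in WT recipients on Day 3 and 0, 0 and 2 in *Il6*-/- recipients. The Day 5 counts were 22, 58 and 15 in WT and 0, 5 and 0 in *Il6*-/- recipients. The groups did not overlap on either day. Its log2 difference was -5.66 ± 1.07 on Day 3 (FDR = 0.0026) and -4.04 ± 0.95 on Day 5 (FDR = 0.025). From the summed reads, the level in WT recipients was 57.7 times that in *Il6*-/- recipients on Day 3 (15.7 to 482) and 17.4 times on Day 5 (7.21 to 54.9). Its relative *5830411N06Rik* (*Scart2*), a gene of γδ T cells, had 0 to 15 reads per library and was not tested. The 8 markers of γδ T cells summed to 5.75 to 7.12 CPM for WT against 6.02 to 6.95 CPM for *Il6*-/- recipients on Day 3. On Day 5 the sums were 5.50 to 7.48 and 4.48 to 7.50 CPM. The T-cell receptor gene *Trdc* had 3.09 to 5.57 CPM over all libraries, and none of the 3 markers that were tested passed on either day. Marker genes at 0 in a whole group were *Trgc4* (WT, Day 3), *Trgc2* (*Il6*-/-, Day 3) and *Blk* (WT, Day 5).

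*Serpinb1a* encodes an inhibitor of serine proteases found in Th17 cells and in neutrophils (chr13:33026042-33035224, minus strand, 8 exons). On Day 3 it had 34, 48 and 46 reads in WT recipients and 1, 6 and 7 in *Il6*-/- recipients. By Day 5 the counts were 25, 21 and 47 in WT and 17, 10 and 19 in *Il6*-/- recipients. It fell by 3.09 ± 0.56 on the log2 scale on Day 3 (FDR = 0.0021), whereas the Day 5 difference of -0.88 ± 0.49 did not pass (FDR = 0.353), although the groups did not overlap in CPM. The Day 3 effect minus the Day 5 effect was -2.21 ± 0.75, which did not pass (FDR = 0.107) but had an FDR of 0.044 with the replicate number as a block and in DESeq2. The 10 neutrophil markers summed to 0.326 to 62.1 CPM (WT) and 0.475 to 49.0 CPM (*Il6*-/-) on Day 3, and none was at 0 in a whole group. Replicate 3 of WT recipients on Day 3 had the lowest neutrophil sum and the highest *Serpinb1a* level of all libraries. Replicate 3 of WT recipients on Day 5 had the highest neutrophil sum (131 CPM) and the highest *Serpinb1a* level of Day 5 (2.21 CPM), and replicate 1 of *Il6*-/- recipients on Day 3 had a sum of 0.475 CPM and the lowest *Serpinb1a* level (0.0528 CPM). The part of neutrophils in the *Serpinb1a* result was not tested. Its copies *Serpinb1b* and *Serpinb1c* had at most 4 reads and 1 read per library.

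**Figure D3:**
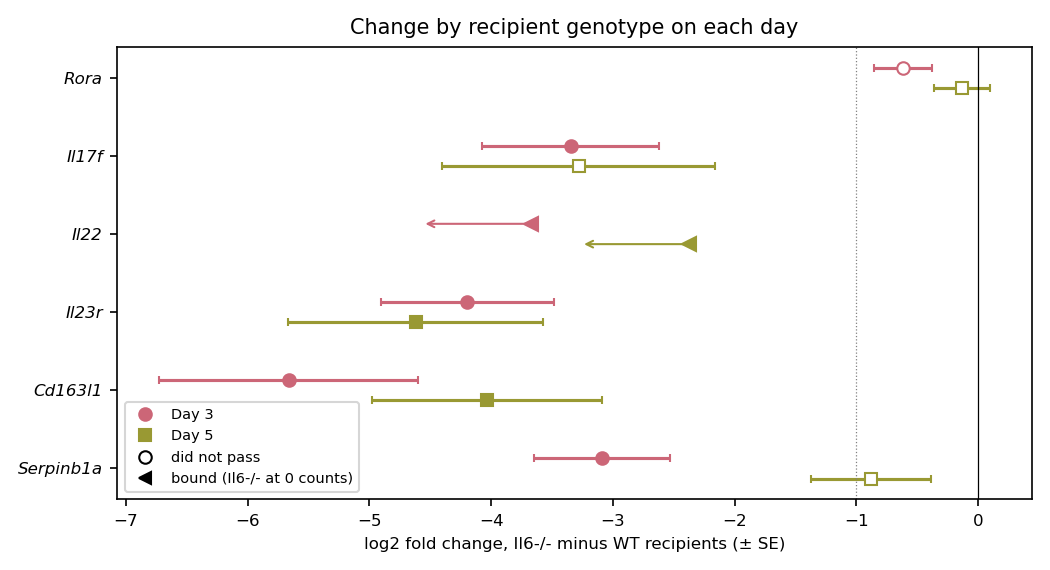
Log2 fold change ± SE of the 6 fitted genes between *Il6*-/- and WT recipients on Day 3 (circles) and Day 5 (squares), with filled symbols for changes that passed, a dotted line at a 2-fold decrease, and triangles with arrows for *Il22*, where only a bound can be given. All 6 values of Day 3 lie below 0, and *Rora* lies within a 2-fold change on both days.

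Over all 7 genes, the groups did not overlap for 6 on Day 3, all lower in *Il6*-/- recipients, beside 15.7% of the genes tested that were lower and 20.5% that were higher without overlap. On Day 5 this held for 4 genes, again all lower, beside 11% lower and 8.65% higher. The 6 of Day 3 include *Il17a*, which was not among the genes tested. Its lowest WT library had 2 reads, under the floor of 3. As the 7 genes were chosen with earlier results of these data known, these counts are a description. The number that passed on Day 3 was 5 in each of the 12 fits that left out 1 library. On Day 5 it was 0 to 3. *Cd163l1* lost its Day 5 call without replicate 2 of WT recipients (FDR = 0.107) or replicate 3 of *Il6*-/- recipients (FDR = 0.087). *Il23r* lost it without replicate 2 of WT recipients (FDR = 0.060) or replicate 2 or 3 of *Il6*-/- recipients (FDR = 0.090 and 0.052). *Il22* lost it without replicate 1 of WT recipients (FDR = 0.051) or replicate 2 or 3 of *Il6*-/- recipients (FDR = 0.052 and 0.057), with no *Il22* read in any library of *Il6*-/- recipients under each of these fits.

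**Figure D4:**
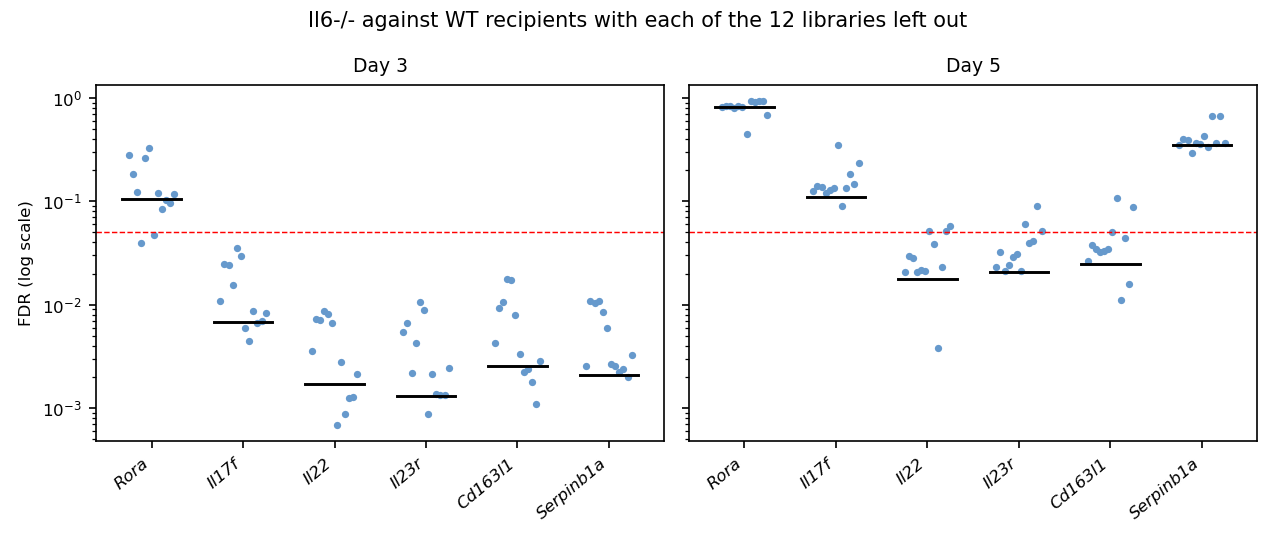
FDR (log axis) of the 6 fitted genes between *Il6*-/- and WT recipients on Day 3 and Day 5, with all libraries (black line) and with each of the 12 libraries left out in turn (points). The dashed line marks an FDR of 0.05. On Day 3 all points of *Il17f*, *Il22*, *Il23r*, *Cd163l1* and *Serpinb1a* lie under the dashed line, and on Day 5 some points of *Il22*, *Il23r* and *Cd163l1* lie above it.

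The genotype effect was compared between the days as the Day 3 effect minus the Day 5 effect. None of the 6 fitted genes passed in edgeR (FDR under 0.05), beside 4.92% of all genes tested, 1.8% with the lower and 3.12% with the higher effect on Day 3. At an unadjusted p under 0.05 there was 1 of them, *Serpinb1a*, and DESeq2 called that same gene. For *Il22* no interaction could be estimated, because *Il6*-/- recipients had no read on either day. For *Il17f* the effects of both days were nearly equal (difference -0.07, FDR = 0.957), but replicates left out moved this value between -0.71 and 1.86.

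To follow the genes over time, Day 5 was set against Day 3 for either recipient genotype. These comparisons share libraries with those above. In WT recipients, the log2 difference was -2.42 ± 0.66 for *Il17f* (FDR = 0.0059) and -2.12 ± 0.59 for *Il23r* (FDR = 0.0068), beside 22.1% of all genes that passed, 9.39% lower and 12.7% higher. Days did not overlap for *Il17f* and *Il23r*, both lower on Day 5, beside 29.9% of genes lower and 33.4% higher without overlap. For *Il17a*, which was not tested, the lowest Day 3 library had 2 reads and the highest Day 5 library 1. Both lie under the floor of 3 reads, so its separation is not counted. *Iltifb* fell by 2.40 ± 0.55 (FDR = 0.0017). *Il22* differed by -1.21 ± 0.65 (FDR = 0.133), which became -2.27 (FDR = 0.014) without replicate 1 of WT recipients on Day 5 and -1.78 ± 0.46 (FDR = 0.0040) when added to *Iltifb*. *Il17a* had 14 reads in all on Day 3 and 1 on Day 5, a ratio of 13.1 (95% counting interval 1.99 to 554). *Cd163l1* (-0.33 ± 0.68, FDR = 0.698), *Serpinb1a* (-0.43 ± 0.47, FDR = 0.451) and *Rora* (0.49 ± 0.23, FDR = 0.082) did not pass.

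In *Il6*-/- recipients, *Serpinb1a* rose by 1.78 ± 0.58 on the log2 scale from Day 3 to Day 5 (FDR = 0.016), beside 25.9% of all genes that passed, 11.4% lower and 14.5% higher. Days did not overlap for *Rora* and *Serpinb1a*, higher on Day 5, beside 33.1% of genes higher and 32.7% lower without overlap. *Il23r* had 1 read in its lowest Day 3 and its highest Day 5 library, under the floor of 3 reads, and its days were not told apart. Without replicate 1 of *Il6*-/- recipients on Day 3 the FDR of *Serpinb1a* was 0.060. The difference of *Rora*, 0.98 ± 0.24 (FDR = 0.0024), was just under 2-fold and went past it without replicate 1 of *Il6*-/- recipients on Day 3 (1.26) or on Day 5 (1.06). *Il17f* had 7 and 1 reads in all on Day 3 and Day 5, *Il23r* 8 and 1, and *Cd163l1* 2 and 5. None of these 3 genes passed (FDR = 0.110, 0.096 and 0.470).

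Compared per length, as mean CPM per kb of exon, *Il22* had the highest level of the 7 genes in WT recipients on Day 3 (1.76 ± 0.33, SD, n = 3). It was followed by *Rora* (1.24 ± 0.19), *Il23r* (0.799 ± 0.35), *Serpinb1a* (0.742 ± 0.23), *Il17f* (0.598 ± 0.12), *Cd163l1* (0.526 ± 0.16) and *Il17a* (0.179 ± 0.091). The mean ± SD of each gene overlapped that of the next, with the exception of *Cd163l1* and *Il17a*. In the other 3 groups *Rora* came first, at 0.814 ± 0.26 in *Il6*-/- recipients on Day 3, 1.76 ± 0.56 in WT recipients on Day 5 and 1.60 ± 0.21 CPM per kb in *Il6*-/- recipients on Day 5. *Serpinb1a* was second in *Il6*-/- recipients on both days, at 0.0841 ± 0.056 and 0.296 ± 0.076 CPM per kb. The length is that of all annotated exons, which lowers the value of a gene with many isoforms such as *Rora*.

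A list of 33 other genes of the Th17 program was examined by role, of which 30 were tested. *Csf2*, *Ccl20* and *Cd5l* had too few reads, with 0 to 6 per library. On Day 3, 5 of the 30 genes were lower in *Il6*-/- recipients and 3 were higher (26.7% of the genes tested, beside 2.74% of all genes), and the median log2 difference was -0.41 against 0.01 for all genes. On Day 5, 2 were lower and none higher (6.67%, beside 1.14%), with medians of -0.09 and 0.01. The list was chosen with earlier results of these data known, so its shares and medians are given as a description. With the replicate number as a block, and likewise with RLE scaling, 3 of the list passed on Day 5, *Tbx21* being the gene added. In DESeq2, 2 of the list passed on Day 5, of which only 1 was lower and had passed in edgeR. Either *Il1r1* or *Il17re* thus had no Day 5 call there. DESeq2 gave an adjusted p to 28 of the 30 genes on Day 5, and whether this gene was among the rest is not given here.

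Among the 9 transcription factors examined beside *Rora*, 1 was higher on Day 3, none was lower by 2-fold, and none passed on Day 5. At an FDR under 0.05 but under 2-fold, 5 of them were lower on Day 3, namely *Maf* (-0.97 ± 0.20, FDR = 0.0047), *Nfkbiz* (-0.68 ± 0.11, FDR = 8.5e-04), *Ikzf3* (-0.64 ± 0.12, FDR = 0.0022), *Hif1a* (-0.44 ± 0.076, FDR = 0.0015) and *Runx1* (-0.39 ± 0.089, FDR = 0.0090). On Day 5, *Batf* was lower in this range (-0.26 ± 0.070, FDR = 0.048). The share of all genes in this range was not determined on either day, so the count has no background beside it. *Ahr*, the receptor for aryl hydrocarbons that promotes *Il22*, rose by 1.08 ± 0.19 on Day 3 (FDR = 0.0016), at 43.3 ± 15.2 CPM for WT and 92.0 ± 3.27 CPM for *Il6*-/- recipients. Without replicate 2 of WT recipients on Day 3 its change was 0.89, under 2-fold. *Stat3*, which carries the IL-6 signal, differed by -0.16 ± 0.07 on Day 3 (FDR = 0.125) and did not pass.

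Among the 11 receptors and signaling genes, *Il1r1*, *Il17re* and *Sgk1* were lower on Day 3, and *Il1r1* and *Il17re* on Day 5. *Il1r1*, the receptor for IL-1, differed by -3.37 ± 0.38 on Day 3 (FDR = 7.0e-05) and -2.04 ± 0.38 on Day 5 (FDR = 0.0062). *Il17re*, a chain of the receptor for IL-17C, differed by -4.18 ± 0.53 (FDR = 1.7e-04) and -2.44 ± 0.50 (FDR = 0.012). Without replicate 3 of *Il6*-/- recipients on Day 5, the Day 5 FDR of *Il17re* was 0.057. *Sgk1*, a kinase that maintains *Il23r*, fell by 1.14 ± 0.18 on Day 3 (FDR = 8.7e-04) and differed by -0.31 ± 0.18 on Day 5 (FDR = 0.375). At an FDR under 0.05 but under 2-fold, the chemokine receptor gene *Ccr6* was higher on Day 3 (0.79 ± 0.16, FDR = 0.0038). In the same range, *Il6ra* (-0.49 ± 0.091, FDR = 0.0022) and *Tgfbr2* (-0.44 ± 0.092, FDR = 0.0057) were lower on Day 3. On Day 5, *Il6ra* was again lower (-0.45 ± 0.089, FDR = 0.0096) and *Il12rb1* higher (0.51 ± 0.14, FDR = 0.047) in this range.

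Among the secreted products and the restraints, *Il21* and *Socs3* were lower and *Il10* and *Tbx21* higher on Day 3, and none of them passed on Day 5 in the fit without a block. *Il21*, an autocrine cytokine of Th17 and Tfh cells, fell by 2.82 ± 0.45 on Day 3 (FDR = 8.8e-04), with 26.2 to 27.8 CPM for WT against 3.70 to 3.89 CPM for *Il6*-/- recipients. Its Day 5 levels were 17.5 to 50.5 and 12.2 to 50.4 CPM, and the groups overlapped. *Socs3*, the feedback inhibitor of IL-6 signaling, fell by 2.34 ± 0.20 on Day 3 (FDR = 7.7e-06) and differed by -0.86 ± 0.18 on Day 5 (FDR = 0.012), under 2-fold. *Il10* had at most 5 reads per library in WT recipients on Day 3 and rose by 2.16 ± 0.63 in *Il6*-/- recipients (FDR = 0.032). It no longer passed without replicate 2 or 3 of WT recipients (FDR = 0.114 and 0.113) or replicate 1 or 2 of *Il6*-/- recipients on Day 3 (FDR = 0.123 and 0.077). *Tbx21*, which encodes the Th1 factor T-bet, rose by 2.49 ± 0.29 on Day 3 (FDR = 8.7e-05) and differed by 1.02 ± 0.29 on Day 5 (FDR = 0.061), which passed with the replicate block (1.08, FDR = 0.021) and just passed with RLE scaling. The 8 markers of innate lymphoid, NKT and NK cells summed to 9.50 to 13.03 CPM for WT against 19.0 to 29.2 CPM for *Il6*-/- recipients on Day 3. Of the 3 tested, *Klrb1c* was higher (3.75 to 5.58 against 18.2 to 26.4 CPM) and *Kit* lower (5.34 to 7.14 against 0.427 to 1.38 CPM), while *Klra8*, *Klre1* and *Il1rl1* were at 0 in both groups. The part of such cells in these results was not tested.

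**Figure D5:**
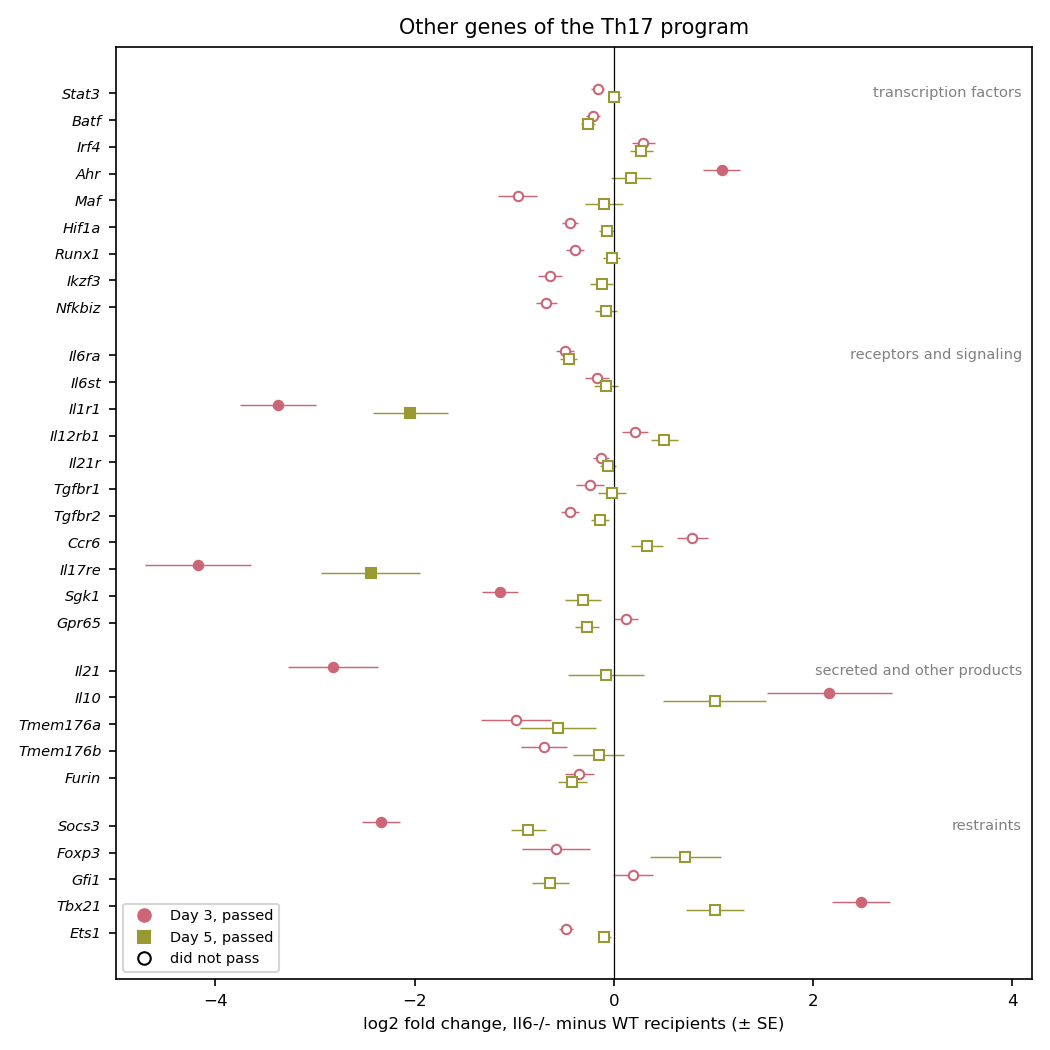
Log2 fold change ± SE between *Il6*-/- and WT recipients on Day 3 (circles) and Day 5 (squares) for the 30 tested genes of the wider Th17 list, ordered by role. Filled symbols mark the genes that passed, 8 on Day 3 and 2 on Day 5.

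In the change over time, 6 of the 30 genes were lower and 3 higher on Day 5 than on Day 3 in WT recipients, and 5 were lower and 6 higher in *Il6*-/- recipients. The genes that passed made up 9 and 11 of the 30 (36.7% in *Il6*-/- recipients), beside 22.1% and 25.9% of all genes. *Ahr* was lower on Day 5, with a log2 difference of -1.14 ± 0.20 in WT recipients (FDR = 1.6e-04) and -2.04 ± 0.20 in *Il6*-/- recipients (FDR = 4.5e-07).

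The genes outside the 7 whose log2 CPM over the 12 libraries was most like that of each fitted gene are given as a description; these points share the 4 groups and the normalization. For *Rora* they were *Gm34771* (Pearson's r = 0.919) and *LOC118568610* (0.919), and for *Il17f* *Trim25* (0.898) and *Oas2* (0.892). For *Il22* they were *Cpm* (0.943) and *Il17re* (0.938), and for *Il23r* *H2az2* (0.944) and *Galnt2* (0.934). For *Cd163l1* they were *Cpm* (0.954) and *Susd1* (0.942), and for *Serpinb1a* *Arl5c* (0.962) and *Tha1* (0.954). *Cpm*, which encodes a carboxypeptidase, thus headed the order for both *Il22* and *Cd163l1*.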

How the data were processed

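OTII cells from 3 replicates per recipient genotype and day were profiled by poly(A) RNA-seq as single-end reads of 50 bases. Trimming by the authors was done in Trim Galore 0.4.4, alignment in STAR 2.5.2a against GRCm39, and gene counting, without strand, in HTSeq-count 0.6.1p1. The trimming options they name are those for paired-end reads. The deposited values are raw read counts for 40840 genes per library, of which 15004 had none in any library. A deposited log2 CPM table of 11258 genes, which the authors made in edgeR, lists *Rora*, *Cd163l1* and *Serpinb1a* but not the other 4 genes, and was not used here.

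The fits used edgeR 4.0.16 in R 4.3.3 (filterByExpr with a minimum count of 10, TMM scaling, 1 coefficient per group, 12 libraries), with DESeq2 1.42.0 as an alternative. SE are the log2 change divided by the square root of the F statistic. Rows that name no gene held the remaining reads, and 52.5% to 62.2% of the reads were on genes. Fold changes against a group without counts are bounds from 3 counts per library and the mean of the other group. They do not cover the spread between libraries. Other alternatives were RLE scaling, no filter, the replicate block, the 6 libraries of a comparison and each library left out. Exons came from GENCODE vM39, promoters from RefSeq. Genes named beyond the 7 are those of the wider list that passed in a genotype comparison, close copies and the 2 nearest in pattern. *Stat3*, *Batf*, *Maf*, *Nfkbiz*, *Ikzf3*, *Hif1a*, *Runx1*, *Ets1*, *Ccr6*, *Il6ra*, *Il12rb1*, *Tgfbr2* and the single marker genes were added after their values were seen. The wider list of 33 genes leaves out 1 gene that is not reported here. The 7 genes and all lists were chosen with earlier results of these data known.

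No pair of libraries in a group was identical or within sampling noise. Same-numbered replicates correlated in their deviations from the group means on Day 5 (r = 0.243, 0.206 and 0.129 over genes between genotypes), so the numbers may pair these libraries. On Day 3 the correlations were weak (r = 0.032 to 0.060), although each WT library was most like the same-numbered library on both days. Between days r was -0.071 to 0.071. Any such pairing rests on the data only.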

Additional observations from a re-analysis of the deposited data

Results flagged for a closer look

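The difference between the genotype effects of Day 3 and Day 5 was tested as an interaction, and 4 of the 30 genes tested of the wider Th17 list passed at an FDR under 0.05 (13.3%, beside 4.92% of all genes). As the list was chosen with earlier results of these data known, this share is a description. The Day 3 effect was lower than the Day 5 effect by -2.74 ± 0.59 on the log2 scale for *Il21* (FDR = 0.018), by -1.48 ± 0.26 for *Socs3* (FDR = 0.0081), by -0.60 ± 0.15 for *Nfkbiz* (FDR = 0.036) and by -0.39 ± 0.10 for *Ets1* (FDR = 0.038). For *Il21* the effect was -2.82 on Day 3 and -0.07 on Day 5. For *Socs3* it was -2.34 and -0.86, for *Nfkbiz* -0.68 and -0.08, and for *Ets1* -0.48 and -0.09. *Socs3* passed with each of the 12 libraries left out, *Il21* in 10 of the 12 fits, *Ets1* in 5 and *Nfkbiz* in 4. *Il21* did not pass without replicate 1 or 2 of *Il6*-/- recipients on Day 3 (FDR = 0.055 and 0.056). The highest FDR was 0.104 for *Ets1*, without replicate 2 of *Il6*-/- recipients on Day 3, and 0.102 for *Nfkbiz*, without replicate 2 of WT recipients on Day 3. None of *Rora*, *Il17f*, *Il23r*, *Cd163l1* and *Serpinb1a* passed, *Il17a* was not fitted, and for *Il22* no difference could be estimated.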

How the results depend on the processing

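On Day 3, the 5 genes that passed kept their direction and passed under every alternative that gave an adjusted p, including the 12 fits that each left out 1 library. DESeq2 gave no adjusted p for *Il17f* on that day. On Day 5, 3 genes passed with all libraries, 1 with only the 6 libraries of the comparison (*Cd163l1* at FDR = 0.061 and *Il23r* at FDR = 0.058) and 0 in DESeq2, which gave an adjusted p to 1 of the 6. Leaving out a library gave 0 to 3 on Day 5, 0 in the interaction, 2 to 3 over time in WT recipients and 1 to 2 over time in *Il6*-/- recipients. In *Il6*-/- recipients over time, 2 genes passed with the replicate block. In the interaction 1 passed in DESeq2 and 1 with the replicate block (*Serpinb1a* in both), and for the wider list 11 passed without a filter, 11 in DESeq2, 12 with the block and 1 to 8 with a library left out, against 4. Over all genes the interaction called 668, and 1300 without a filter, 1132 in DESeq2, 1564 with the block and 230 to 955 with a library left out. The Day 5 comparison called 155, and 259 without a filter and 74 to 299 with a library left out. The cause of these shifts was not tested.

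The replicate block also took *Rora* past 2-fold over time in *Il6*-/- recipients (1.01) and changed no call of the 7 genes on Day 3 or Day 5. Reversals were limited to values that had not passed and arose when 1 library was left out. Over the 12 fits, *Rora* on Day 5 ran from -0.36 to 0.076 and *Il21* on Day 5 from -0.45 to 0.33. *Cd163l1* ran from -1.14 to 0.033 over time in WT recipients, from -2.69 to 3.96 over time in *Il6*-/- recipients and from -4.29 to 2.29 in the interaction. Interaction values ran from -0.71 to 1.86 for *Il17f*, from -0.39 to 2.38 for *Il23r* and from -1.29 to 0.36 for *Iltifb*. Genes with under 10 reads in a library limit what can be compared, and a difference in *Il17a* on Day 5 was not detectable at this depth.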
